A study of Mus musculus with 35 samples.

Results

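Collagens are the main structural proteins of the extracellular matrix. Their chains carry a repeated glycine-X-Y motif and wind around each other into a helical trimer. In the intestine, types I and III form the thick fibrils of the submucosa, type IV forms the sheet under the epithelium and around vessels and muscle cells, and type VI forms fine filaments close to the cell surface. Fibroblasts, smooth muscle cells and endothelial cells are their usual sources, and collagen output is known to increase in tissue that repairs after injury. The genes described here were all those with a symbol made of Col, a number, the letter a and a number. They were 44 genes of the 19908 measured, read by 46 probe sets, and the rule that picks them uses the symbol alone. They were divided by the structure their chains build into 11 fibrillar, 6 basement membrane (type IV), 6 beaded filament (type VI) and 9 fibril-associated collagens (FACIT, which bind to the surface of fibrils). The rest were 4 transmembrane collagens, 3 short chain network collagens, 2 multiplexins (types XV and XVIII of basement membrane zones), the anchoring fibril gene Col7a1, and Col26a1 and Col28a1.

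The arrays (Affymetrix Mouse Gene 1.0 ST) read colon RNA from 35 different C57BL/6N mice, which formed 7 groups of 5. The design contrasts mice that carry a Reg3a transgene (TG) with wild-type mice (WT), either untreated or given dextran sodium sulfate (DSS), a polymer used to induce colitis in mice. The conventional groups were TG mice given 3% DSS for 5 days and then water, WT mice given the same, untreated TG mice and untreated WT mice. Axenic (germ-free) mice made up the remaining 3 groups, and all received 3% DSS for 5 days. One group had been given flora of TG donors and another flora of WT donors 3 weeks ahead of DSS. The label of the axenic controls puts DSS ahead of a microbial transfer, and whether and when they received flora is not known here. Colons were collected at day 12. A treatment characteristic of the conventional mice also mentions a microbial transfer, which the titles and the design text do not, and titles and design text were followed. The sources used here name neither the promoter nor the species of the transgene. The probe set of mouse Reg3a averaged 5.05 ± 0.11 log2 units in DSS TG mice and 5.20 ± 0.17 in DSS WT mice, and 5.15 ± 0.06 in untreated TG and 5.25 ± 0.20 in untreated WT mice (SD, n = 5 each). It did not separate TG from WT mice, and whether it would read the transgene is not known.

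All values are log2 signal, so that a difference of 1 is a change by a factor of 2, and the level of a probe set cannot be set against that of another gene. The spread of an array, the standard deviation over all its probe sets, ranged from 1.64 to 2.03. It lay between 1.90 and 2.03 in axenic recipients of WT flora and between 1.64 and 1.78 in axenic controls, with no overlap. The spread is given below beside the results that move with it. In tissue RNA, more cells of a type and more RNA per cell cannot be told apart. The labelled tissue showed its markers, since the epithelial gene Epcam averaged between 11.76 and 12.05 and the smooth muscle gene Myh11 between 10.41 and 11.93 in the 7 groups. Pancreatic enzyme genes were also read, and the mean of 5 of them reached 11.67 in an untreated WT mouse and 11.22 in a recipient of WT flora, against 6.25 in the lowest mouse of all groups.

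Upstream sequences of the collagens were taken from RefSeq (GRCm38.p6), in which 35 of the 44 genes had 38 windows of 250 bases before the start of transcription. The windows of Col1a2, Col3a1 and Col6a3 are shown as those of 3 of the 5 genes that passed the test after DSS in both genotypes, and the start of Col4a1, another of the 5, is shown with that of Col4a2. Each of the 3 windows is written 5′ to 3′ on the strand of the gene. Matches to CCAAT (a common promoter motif), to TATAAA (the TATA box) and to GGGCGG (a motif of GC-rich promoters) are in capitals there. Col1a2 lies at chr6:4505368-4505617 on the plus strand, Col3a1 at chr1:45311288-45311537 on the plus strand and Col6a3 at chr1:90843972-90844221 on the minus strand.
Col1a2: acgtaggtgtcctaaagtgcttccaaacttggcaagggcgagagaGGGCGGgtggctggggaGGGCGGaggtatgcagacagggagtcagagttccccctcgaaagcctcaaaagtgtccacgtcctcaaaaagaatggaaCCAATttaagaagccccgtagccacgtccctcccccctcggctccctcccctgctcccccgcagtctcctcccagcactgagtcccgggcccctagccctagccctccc
Col3a1: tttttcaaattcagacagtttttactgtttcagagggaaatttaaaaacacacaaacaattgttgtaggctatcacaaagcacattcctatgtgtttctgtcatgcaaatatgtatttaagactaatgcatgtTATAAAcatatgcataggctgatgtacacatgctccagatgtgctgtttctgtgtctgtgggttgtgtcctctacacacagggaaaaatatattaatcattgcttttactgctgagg
Col6a3: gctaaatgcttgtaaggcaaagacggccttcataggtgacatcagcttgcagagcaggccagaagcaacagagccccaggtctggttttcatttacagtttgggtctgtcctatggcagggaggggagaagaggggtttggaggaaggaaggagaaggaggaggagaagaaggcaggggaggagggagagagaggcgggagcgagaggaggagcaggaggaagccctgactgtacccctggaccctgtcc
No searched motif occurs in all 3 windows. The motifs were searched on both strands, and the end of CCAAT can overlap the first base of TATAAA. Matches to CCAAT were found in 34.2% of the collagen windows, against 33.8% of all 32851 RefSeq windows of the same length. The same shares were 13.2% against 12.4% for TATAAA and 57.9% against 32.7% for GGGCGG.

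Col4a1 and Col4a2, which encode the chains of the most common type IV trimer, lie head to head on chromosome 8. Transcription of Col4a1 starts at base 11312826 on the minus strand and that of Col4a2 at base 11312805 on the plus strand, so that the starts overlap by 22 bases (chr8:11312805-11312826, plus strand, GRCm38.p6).
Col4a1 and Col4a2 overlap: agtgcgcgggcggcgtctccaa
The overlap lies outside the searched windows, and its match to GGGCGG is left in lower case. Col4a6 and Col4a5 are also divergent neighbours, with starts 1343 bases apart on chromosome X.

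Given DSS, WT colons had higher signal of 6 collagen genes than untreated WT colons. At an adjusted p under 0.05, 6 of 44 collagens were higher and 0 were lower. These were Col1a1, Col1a2 and Col3a1 of the fibrillar class, Col4a1 and Col4a2 of the basement membrane and Col6a3 of the beaded filaments. Of all 19908 genes 5.13% were called in this comparison, 3% of them higher and 2.13% lower, each as a share of all genes. The other 38 collagens did not pass, and the median difference over the 44 was -0.01, against -0.02 over all genes.

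Col1a1, the main chain of type I collagen, read 8.96, 9.73, 9.79, 10.41 and 10.66 in DSS WT mice, against 8.41, 8.49, 8.55, 8.64 and 8.68 in untreated WT mice. All mice given DSS were above all untreated mice, and the spread was wider with DSS. The difference was 1.36 (SE 0.26, adjusted p = 0.0155), a 2.56-fold rise. Col3a1, whose product mixes with type I in the same fibrils, read 8.99, 9.61, 9.80, 10.27 and 10.58 in DSS WT mice, against 8.39, 8.43, 8.54, 8.57 and 8.65 in untreated WT mice. Its groups did not overlap either, and it rose by 1.33 (SE 0.25, adjusted p = 0.0124). Col1a2, the partner chain of type I, rose by 1.12 (SE 0.26, adjusted p = 0.0339), with DSS WT mice from 8.73 to 10.39 and untreated WT mice from 8.21 to 8.56. In each of these 3 genes the lowest DSS mouse was WT56.

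The other 8 fibrillar genes did not pass the test. Col5a2, a type V chain found inside type I fibrils, came closest, with 6.79, 6.92, 7.16, 7.53 and 7.63 in DSS WT mice, against 6.55, 6.56, 6.67, 6.70 and 6.71 in untreated WT mice. Its groups did not overlap, and the difference was 0.57 (SE 0.16, adjusted p = 0.0713). Differences in the remaining 7 reached from -0.13 in Col11a1, a minor fibrillar chain best known from cartilage, to 0.20 in Col5a1.

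Among the type IV genes, only the head-to-head pair rose in WT mice. Col4a1 read 8.19, 8.38, 8.61, 9.08 and 9.10 in DSS WT mice, against 7.72, 7.91, 7.92, 7.96 and 8.06 in untreated WT mice, a difference of 0.76 (SE 0.18, adjusted p = 0.0348). Col4a2 rose by 0.64 (SE 0.15, adjusted p = 0.0382), with DSS WT mice from 7.77 to 8.60 and untreated WT mice from 7.42 to 7.54. In both genes every DSS mouse was above every untreated mouse. Differences in Col4a3, Col4a4, Col4a5 and Col4a6, whose chains build basement membranes of more restricted distribution such as those of the kidney glomerulus, lay between -0.21 and -0.06, and none passed.

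Col6a3, the longest chain of type VI collagen, read 7.89, 8.12, 8.28, 8.55 and 8.92 in DSS WT mice, against 7.26, 7.35, 7.54, 7.60 and 7.72 in untreated WT mice. The groups did not overlap, and Col6a3 rose by 0.86 (SE 0.18, adjusted p = 0.0221). Its partner chains Col6a1 and Col6a2 differed by 0.22 (adjusted p = 0.598) and 0.26 (adjusted p = 0.372), with overlapping groups. Col6a4, Col6a5 and Col6a6 did not pass.

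Of the fibril-associated collagens none passed in WT mice, although Col12a1, a FACIT found on fibrils of tissue under load, had the largest difference of the 44. Col12a1 read 7.70, 7.76, 8.49, 9.67 and 9.89 in DSS WT mice, against 6.88, 7.27, 7.28, 7.38 and 7.51 in untreated WT mice. Its DSS mice spread over more than 2 log2 units while lying above all untreated mice, and the difference was 1.44 (SE 0.41, adjusted p = 0.0717). Col14a1, its close relative, differed by -0.11 (adjusted p = 0.945). Col18a1, the source of the fragment endostatin, differed by 0.66 (SE 0.20, adjusted p = 0.0971), and Col15a1 by 0.32 (adjusted p = 0.432). The anchoring fibril gene Col7a1 and the hemidesmosome gene Col17a1 differed by -0.01 and -0.02. Counting groups that did not overlap, 8 collagens were higher and 0 lower, against 3.2% and 2.96% of all genes.

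These WT calls differed in how far they depended on a mouse. Col1a1 and Col3a1 passed in all 10 fits that left out 1 mouse, Col6a3 in 7, Col4a1 and Col4a2 in 3 each and Col1a2 in 2. Over all genes those fits called between 424 (2.13%, without WT7) and 1277 (6.41%, without WT55), against 1022 with all mice. The count of collagens was 2 without WT7, WT8 or WT10, 3 without WT9, WT11, WT52 or WT65, and 9 without WT56, when Col5a2, Col12a1 and Col18a1 also passed. With the mean of 10 smooth muscle markers as a covariate 0 collagens passed, and 2.02% of all genes were called, against 5.13% without it. The differences of the 6 genes were 0.52 to 1.16 with the covariate, against 0.64 to 1.36 without it. Col1a1 differed by 1.11 (adjusted p = 0.0601) and Col3a1 by 1.16 (adjusted p = 0.0558) in the fit with the covariate. That mean was 10.11 ± 0.35 in DSS WT and 10.36 ± 0.19 in untreated WT mice (SD, n = 5 each). Col4a1 and Col4a2 also lost the call after quantile normalization and after arrays were scaled to a common spread.

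**Figure D1:**
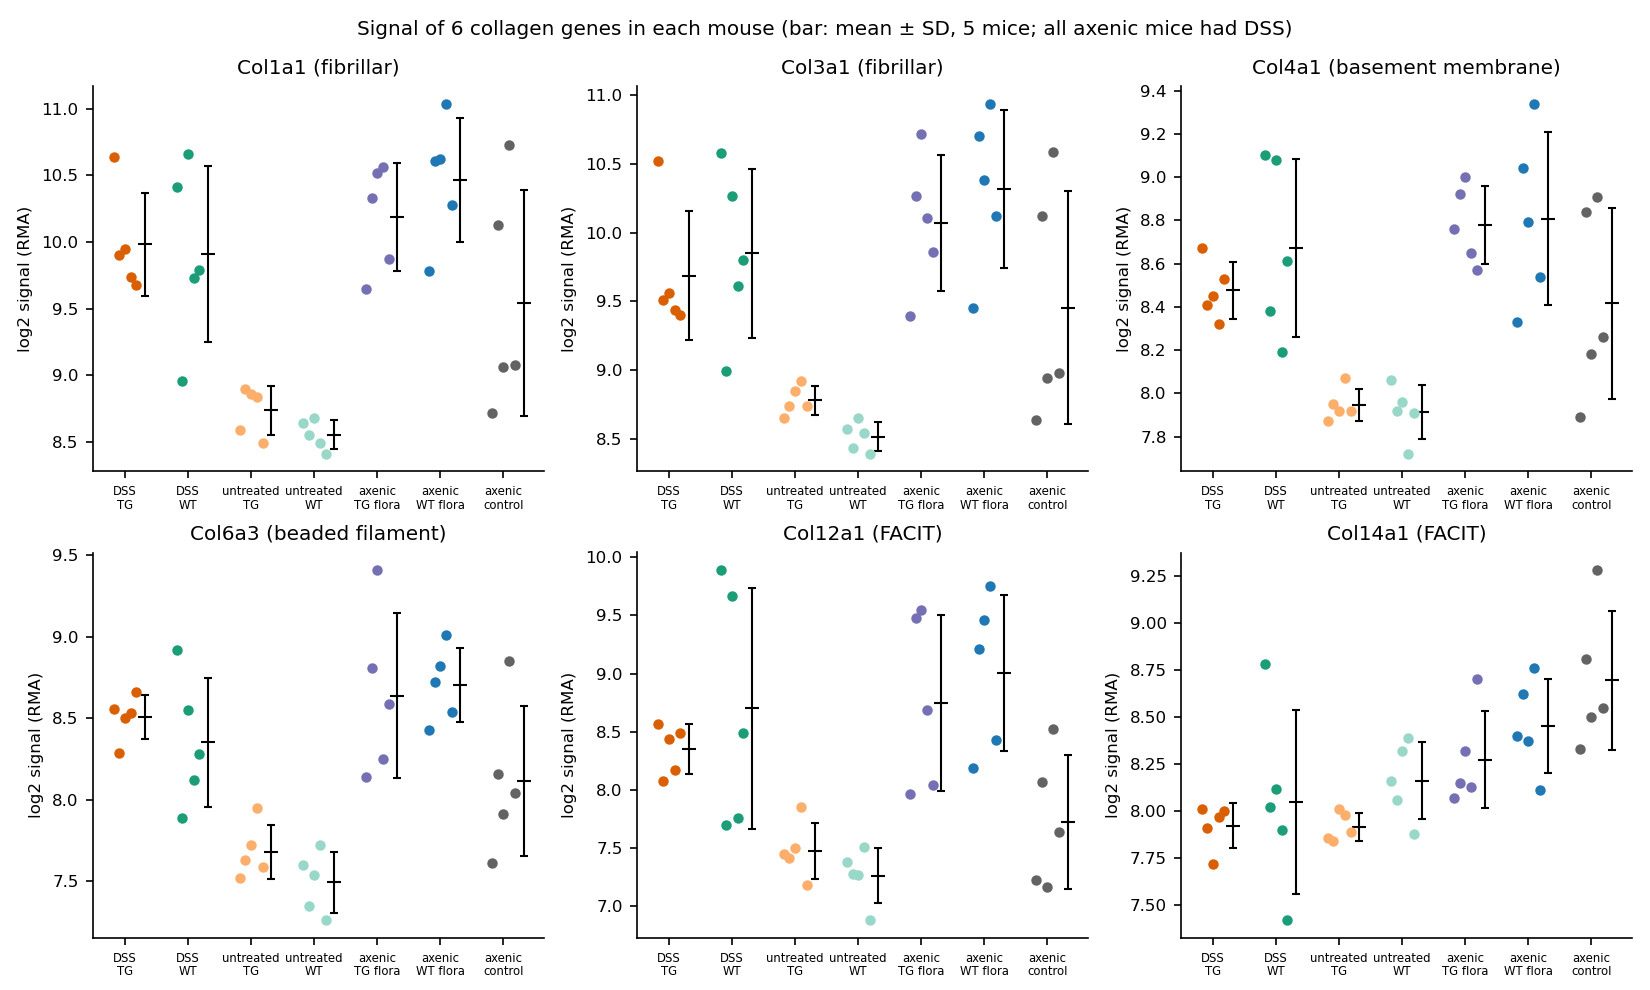
Log2 signal of 6 collagen genes (vertical axes) in each of 35 mice, by group (horizontal axes), with bars for the mean ± SD of 5 mice. In the conventional groups Col1a1, Col3a1, Col4a1 and Col6a3 are higher in all mice given DSS than in all untreated mice of the same genotype, and Col14a1 is not. Some axenic controls, which also had DSS, lie in the untreated range.

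In TG mice the comparison of DSS with no treatment gave 7 collagens higher and 0 lower, while 4.55% of all genes were called, 3.46% higher and 1.08% lower. They were Col1a1, Col1a2, Col3a1, Col4a1, Col6a2, Col6a3 and Col12a1. The other 37 collagens did not pass, and the median over the 44 was -0.15, against -0.01 over all genes. Leaving out 1 mouse gave between 178 genes called (0.894%, without TG48) and 1668 (8.38%, without TG47), against 905 with all mice. The spread of the arrays averaged 1.90 in DSS TG and 1.83 in untreated TG mice.

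For Col1a1 the signal was 9.68, 9.74, 9.90, 9.95 and 10.64 in DSS TG mice, against 8.49, 8.59, 8.84, 8.86 and 8.90 in untreated TG mice. The groups did not overlap, and the difference of 1.25 (SE 0.17, adjusted p = 0.00701) is a 2.37-fold rise. Col1a2 rose by 1.09 (SE 0.15, adjusted p = 0.00701), with DSS TG mice from 9.29 to 10.23 and untreated TG mice from 8.46 to 8.72. Col3a1 read 9.4, 9.44, 9.51, 9.56 and 10.52 in DSS TG mice, against 8.65, 8.74, 8.74, 8.85 and 8.92 in untreated TG mice. It rose by 0.91 (SE 0.19, adjusted p = 0.0257), and mouse TG49 was the highest for all 3 fibrillar genes. Col5a2 differed by 0.25 (SE 0.07, adjusted p = 0.0749) and Col11a1 by -0.25 (adjusted p = 0.175), with overlapping groups.

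Col4a1 read 8.32, 8.41, 8.45, 8.53 and 8.67 in DSS TG mice, against 7.87, 7.92, 7.92, 7.95 and 8.07 in untreated TG mice. It rose by 0.53 (SE 0.08, adjusted p = 0.0105), and the groups did not overlap. Col4a2 differed by 0.30 (SE 0.10, adjusted p = 0.100), with DSS TG mice from 7.81 to 8.19 and untreated TG mice from 7.47 to 7.84, which overlap. Col4a6 lay lower in all 5 DSS TG mice, at 5.81 to 6.11 against 6.17 to 6.42 in untreated TG mice, a difference of -0.30 that missed the threshold (SE 0.08, adjusted p = 0.0591).

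Of the 6 type VI genes 2 rose in TG mice. Col6a3 rose by 0.83 (SE 0.10, adjusted p = 0.00507), with 8.29, 8.50, 8.53, 8.56 and 8.66 in DSS TG mice, against 7.52, 7.59, 7.63, 7.72 and 7.95 in untreated TG mice. Col6a2 rose by 0.38 (SE 0.09, adjusted p = 0.0438), with DSS TG mice from 8.46 to 8.62 and untreated TG mice from 7.94 to 8.30. Neither gene's groups overlapped. Col6a1 and Col6a4 differed by 0.39 (adjusted p = 0.0653) and 0.31 (adjusted p = 0.068), while Col6a5 and Col6a6 differed by -0.25 and -0.27.

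Col12a1 read 8.08, 8.17, 8.44, 8.49 and 8.57 in DSS TG mice, against 7.18, 7.42, 7.45, 7.50 and 7.85 in untreated TG mice. It rose by 0.87 (SE 0.13, adjusted p = 0.0104) with no overlap. Col9a1, a fibril-associated chain of cartilage, was lower in all 5 DSS TG mice, from 6.10 to 6.77, than in untreated TG mice, from 6.77 to 7.47, where the bounds differ beyond the printed decimals. It missed the threshold at -0.46 (SE 0.15, adjusted p = 0.092). Col18a1 differed by 0.33 (adjusted p = 0.0681) with no overlap. The smallest p among the transmembrane collagens belonged to Col25a1, at -0.37 (adjusted p = 0.0849), and Col8a1, a network collagen of vessel walls, differed by -0.57. By non-overlap, 8 collagens were higher and 2, Col4a6 and Col9a1, were lower. These are 18.2% and 4.55% of the 44, against 5.4% and 3.3% of all genes. The within-group r of Col4a6 and Col9a1 with the array spread was -0.76 and -0.94. That spread averaged 1.90 in DSS TG and 1.83 in untreated TG mice, and its part in the 2 lower genes was not tested.

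Col1a1, Col1a2, Col4a1, Col6a3 and Col12a1 passed in all 10 TG fits that left out 1 mouse. Col3a1 was lost without TG26, TG29, TG48 or TG631 and Col6a2 without any mouse but TG28, as well as after quantile normalization and scaling of the arrays. With 1 mouse left out the count of collagens was between 5 and 9, the highest without TG47. Of 8 settings that kept all mice, Col3a1 passed in 6 and Col6a2 in 3. With the smooth muscle covariate 5 collagens passed, with 2.11% of all genes called, and Col3a1 and Col6a2 did not. Across settings that kept all mice, array weights gave 15 collagens, 12 of them higher and 3 lower, with 16.4% of all genes called. A model of all 35 arrays gave 3, with 3.01% of all genes called.

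Both genotypes had 5 of these calls in common, Col1a1, Col1a2, Col3a1, Col4a1 and Col6a3, or 71.4% of the collagens called in TG mice and 83.3% of those called in WT mice. Of all genes called higher, 234 were shared, which is 34% of the TG and 39.2% of the WT list. No mouse is used in both comparisons. A call in only one genotype does not show that the genotypes differ, and the test of that difference called 0 collagens, with 0.156% of all genes called. At an unadjusted p under 0.05, 1 collagen and 1478 genes passed in limma. The collagen was Col8a1, whose DSS difference was 0.85 log2 units lower in TG than in WT mice (-0.85, SE 0.40, adjusted p = 0.662). Its mean was 8.19 ± 0.80 in untreated TG and 7.46 ± 0.19 in untreated WT mice, against 7.62 ± 0.17 in DSS TG and 7.75 ± 0.50 in DSS WT mice. The untreated TG mice TG28 (9.11) and TG31 (8.95) were the highest. For Col12a1 the difference in response was -0.57, with a 95% interval from -1.52 to 0.39, and for Col3a1 it was -0.43, with an interval from -1.11 to 0.26. For Col1a1 it was -0.11 (-0.80 to 0.58) and for Col6a3 -0.03 (-0.47 to 0.41). All 11 fibrillar genes had a negative difference in response, with a median of -0.16, and 37 of 44 collagens did, against 10918 of 19908 genes. The difference in response is TG minus WT with DSS, less TG minus WT without treatment. In the 11 fibrillar genes TG minus WT was positive in 5 with DSS (median -0.01) and in 11 without treatment (median 0.15). In the 44 collagens it was positive in 17 (median -0.02) and in 39 (median 0.13). These genes share arrays, so their signs are not independent. The array spread averaged 1.90 with DSS and 1.83 without it in TG mice, and 1.87 both with and without it in WT mice, and its part in these signs was not tested.

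**Figure D2:**
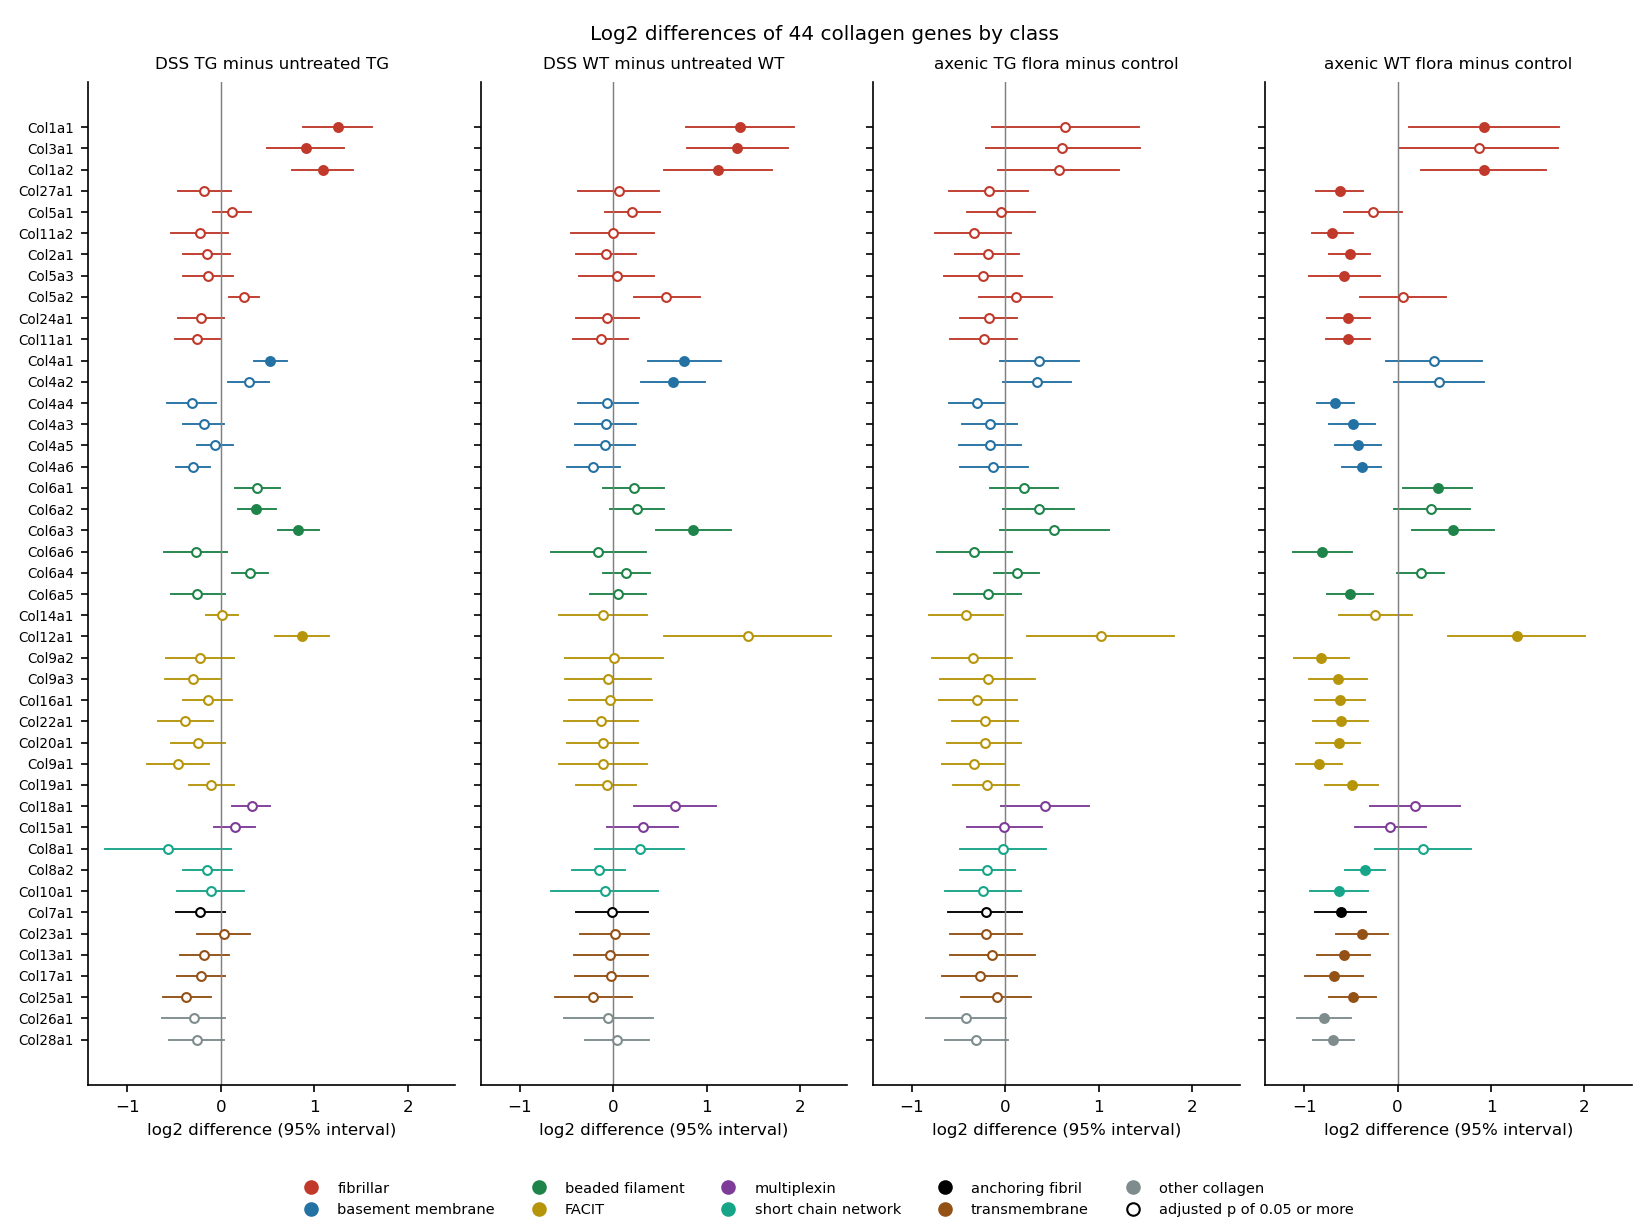
Log2 differences with 95% intervals (horizontal axes) of 44 collagen genes (vertical axis, coloured by class) in 4 comparisons, with filled points for adjusted p under 0.05. The genes called after DSS are of types I, III, IV and VI and Col12a1, while in recipients of WT flora 28 genes were called lower than in axenic controls and 5 higher. Under quantile normalization none of those 5 passed and Col6a1 turned negative.

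Transgenic and wild-type colons were then compared at the same treatment. Under DSS, TG minus WT gave 0 of 44 collagens called, against 0.00502% of all genes, and at an unadjusted p under 0.05 there were 1 collagen and 1030 genes. That collagen was Col6a4, at 0.26 (SE 0.09, adjusted p = 0.709). Col1a1 averaged 9.98 ± 0.39 in DSS TG mice and 9.91 ± 0.66 in DSS WT mice, a difference of 0.07 with a 95% interval from -0.59 to 0.73. Col3a1 averaged 9.69 ± 0.47 in DSS TG and 9.85 ± 0.61 in DSS WT mice (-0.16, interval -0.83 to 0.50). Col12a1 averaged 8.35 ± 0.21 in DSS TG and 8.70 ± 1.03 in DSS WT mice (-0.35, interval -1.25 to 0.55). Its SD was larger in WT than in TG mice, as it was for Col1a1, Col3a1, Col4a1 and Col6a3. With array weights Col6a2 passed as higher in TG mice, with 339 genes called (1.7%), against 1 without weights.

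Without treatment, TG minus WT again gave 0 collagens called, against 0.0753% of all genes, with 4 collagens and 996 genes at an unadjusted p under 0.05. Of the 44 differences 39 were positive and 5 negative, with a median of 0.13, against 0.01 over all genes. The array spread averaged 1.83 in untreated TG and 1.87 in untreated WT mice, and its part in these signs was not tested. Of the 35 collagens with a mean signal under 8, 29 had a within-group r between -0.96 and -0.66 with that spread. Col3a1 had the smallest p, at 8.78 ± 0.11 in untreated TG and 8.52 ± 0.11 in untreated WT mice, a difference of 0.26 (adjusted p = 0.789). Col5a2 was the 1 collagen whose groups did not overlap, with 6.79 to 7.04 in untreated TG and 6.55 to 6.71 in untreated WT mice, as did 0.387% of all genes in that direction. Col8a1 differed most, by 0.73 (SE 0.31, adjusted p = 0.936). It read 7.43, 7.50, 7.97, 8.95 and 9.11 in untreated TG mice, against 7.21, 7.34, 7.50, 7.60 and 7.66 in untreated WT mice. The highest values were those of TG28 and TG31, and the other TG mice lay in or near the WT range.

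The axenic mice ask whether transferred flora alters the colon under DSS. Between recipients of TG flora and of WT flora 0 of 44 collagens were called, with 0% of all genes called. At an unadjusted p under 0.05, 14 collagens and 6856 genes passed in limma. Col1a1 read 9.65, 9.87, 10.33, 10.52 and 10.56 with TG flora, against 9.78, 10.28, 10.61, 10.62 and 11.04 with WT flora, which overlap. The difference was -0.28, with a 95% interval from -0.81 to 0.25. Col3a1 differed by -0.25 (interval -0.89 to 0.39) and Col4a1 by -0.03 (interval -0.42 to 0.36). Col9a1 had the smallest p, at 0.50 (SE 0.16, adjusted p = 0.0823), and was 6.41 to 7.25 with TG flora and 6.01 to 6.53 with WT flora. Over the 44 genes 32 were positive and the median was 0.31. A model of all 35 arrays gave 0 collagens and 1927 genes called, and array weights gave 2 collagens higher and 4886 genes called. Leaving out TG749 gave 6 collagens higher and 4700 genes called. The array of TG749 had a spread of 1.94, within the range of the WT flora group, and the other TG flora arrays lay at 1.66 to 1.86.

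Recipients of WT flora differed from axenic controls in most genes, since 67.3% of all genes were called, 32.1% higher and 35.2% lower. Of the 44 collagens 5 were higher and 28 lower, and 25 lay lower in all mice with WT flora than in all controls, as did 24.6% of all genes. The 5 higher were Col1a1, Col1a2, Col6a1, Col6a3 and Col12a1, of which none passed after quantile normalization. The 28 lower were 6 fibrillar genes, Col4a3 to Col4a6, Col6a5, Col6a6, 7 fibril-associated genes, all 4 transmembrane genes, Col8a2, Col10a1, Col7a1, Col26a1 and Col28a1. Among the called genes the split followed the brightness of the probe sets.

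Of the 9 collagens with a mean signal of at least 8 over the 35 arrays, 5 were higher and 0 lower, and of all 5275 genes at that level 74.8% were higher and 2.64% lower. Of the 35 collagens under 8, 0 were higher and 28 lower, or 80%, while of all 14633 such genes 16.7% were higher and 46.9% lower. Whether these shares of the collagens differ from those of all genes was not tested. The array spread differed between the groups without overlap, and the part of that difference in these calls cannot be told apart from flora.

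Col12a1 read 8.19, 8.43, 9.21, 9.46 and 9.75 with WT flora, against 7.17, 7.23, 7.64, 8.07 and 8.52 in axenic controls. The groups overlapped at a single control, CT229, and the difference was 1.28 (SE 0.34, adjusted p = 0.00673). It passed in all 10 fits that left out 1 mouse and after arrays were scaled to a common spread, but not under quantile normalization. Col1a1 read 9.78, 10.28, 10.61, 10.62 and 11.04 with WT flora, against 8.72, 9.06, 9.08, 10.13 and 10.73 in axenic controls. Its controls were split, with CT229 and CT517 inside the range of the flora group, and the difference was 0.92 (SE 0.37, adjusted p = 0.0425). Col1a2 differed by 0.92 (adjusted p = 0.0206), Col6a3 by 0.59 (adjusted p = 0.0233) and Col6a1 by 0.43 (adjusted p = 0.0419), and Col3a1 at 0.87 did not pass (adjusted p = 0.0662). Col1a1 passed in 3 of the 10 fits that left out 1 mouse, those without WT880, CT517 or CT229, Col6a1 in 4, Col6a3 in 7 and Col1a2 in 8. Without WT597 or without CT465 Col12a1 alone was higher.

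The higher calls other than Col12a1 were lost under both rescalings of the arrays, and Col12a1 under quantile normalization. After quantile normalization 0 collagens were higher and 26 lower, with 3054 genes higher and 3583 lower, and Col6a1 turned to -0.15 (adjusted p = 0.456). Col4a5, Col4a6, Col19a1 and Col25a1 lost the lower call, and Col5a1 and Col14a1 gained it. After scaling all arrays to a common spread, a setting added after the data were seen, 1 was higher and 28 lower, with 5627 genes higher and 3413 lower. Those 28 included Col5a1 and Col14a1, and Col4a6 and Col19a1 lost the lower call.

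The lower calls are shown by Col9a1 and Col4a4. Both were dim, with mean signals of 6.74 and 6.77 over the 35 arrays, whose medians over all probe sets lay between 6.65 and 6.95. Their within-group r with the array spread was -0.94 and -0.91. No detection call was made, so whether these probe sets read more than background is not known. Col9a1 read 6.01, 6.26, 6.36, 6.51 and 6.53 with WT flora, against 7.02, 7.06, 7.15, 7.29 and 7.35 in axenic controls, a fall of 0.84 on the log2 scale (-0.84, SE 0.11, adjusted p = 0.000358). Col4a4, a chain of specialised basement membranes, read 6.31, 6.35, 6.39, 6.53 and 6.61 with WT flora, against 6.96, 7.05, 7.11, 7.12 and 7.26 in axenic controls (-0.67, SE 0.09, adjusted p = 0.000327). Neither gene's groups overlapped. The smallest p of the fibrillar class was in Col11a2 (-0.70, adjusted p = 0.000422), of the beaded filaments in Col6a6 (-0.81, adjusted p = 0.00109) and of the transmembrane genes in Col17a1 (-0.68, adjusted p = 0.00223). Col7a1 fell by 0.61 (-0.61, adjusted p = 0.00192). Differences of the 28 lay between -0.84 and -0.35, and all 28 stayed negative in every setting that tested them and in every fit that left out 1 mouse.

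**Figure D3:**
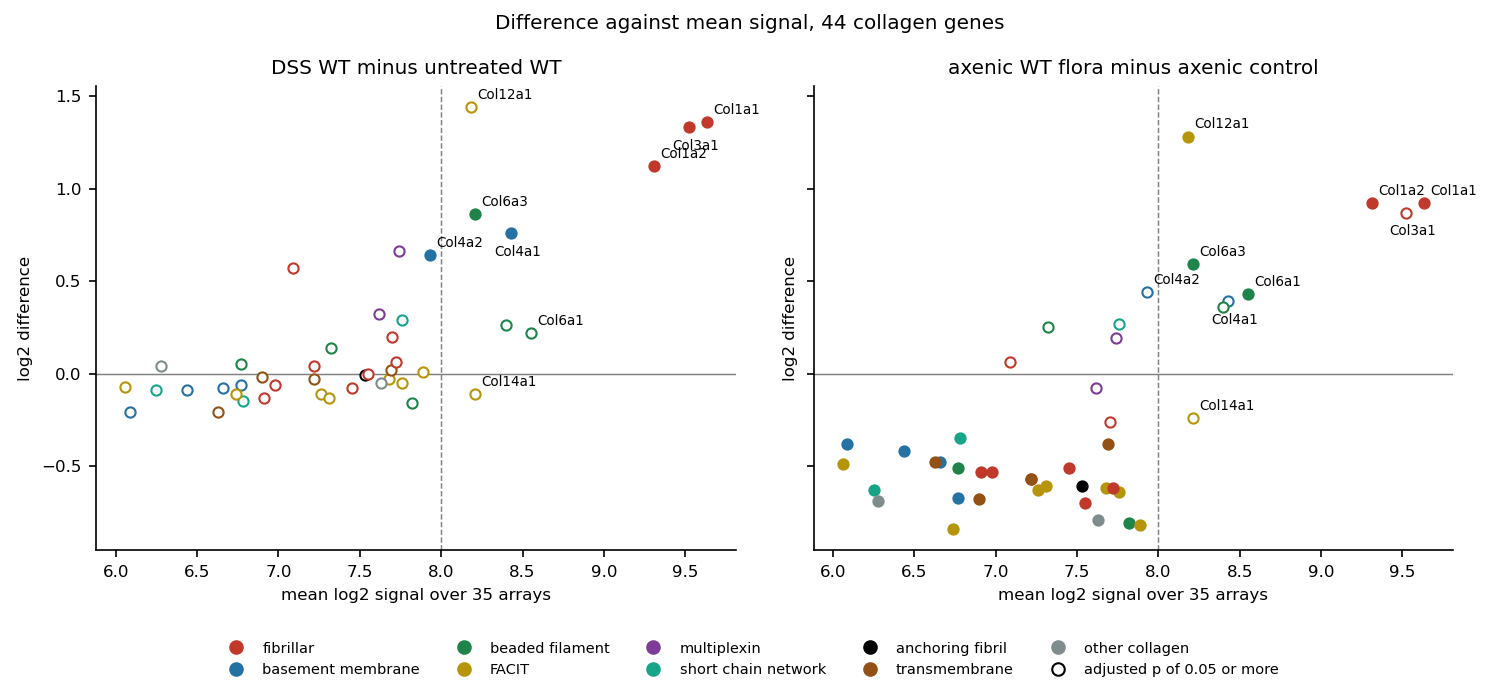
Log2 difference (vertical axes) against mean log2 signal over 35 arrays (horizontal axes) for 44 collagen genes, with filled points for adjusted p under 0.05 and a dashed line at a signal of 8. After DSS in WT mice genes under 8 other than Col4a2 do not pass, and in recipients of WT flora 28 genes under 8 were called lower than in axenic controls, while the 5 genes above 8 called higher did not pass under quantile normalization, where Col6a1 turned negative.

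With TG flora, 0 of 44 collagens passed against axenic controls, with 0.337% of all genes called, and at an unadjusted p under 0.05 there were 4 collagens and 3613 genes. Both flora comparisons use the same 5 controls. Col12a1 had the smallest p, with 7.97, 8.04, 8.69, 9.48 and 9.55 with TG flora, against 7.17, 7.23, 7.64, 8.07 and 8.52 in axenic controls, a difference of 1.02 (SE 0.36, adjusted p = 0.194). Col1a1 averaged 10.19 ± 0.40 with TG flora and 9.54 ± 0.85 in axenic controls, a difference of 0.64 with an interval from -0.14 to 1.43. Col14a1 differed by -0.42 (adjusted p = 0.262), with 8.07 to 8.70 with TG flora and 8.33 to 9.28 in axenic controls. Without TG922, whose array spread was 1.66, 15 collagens passed, with Col12a1 higher and 14 lower, and 5307 genes were called. Array weights gave 18 collagens, 9 higher and 9 lower, with 33.4% of all genes called. A smooth muscle covariate gave 26, with Col12a1 higher and 25 lower, and 39.2% of all genes called.

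**Figure D4:**
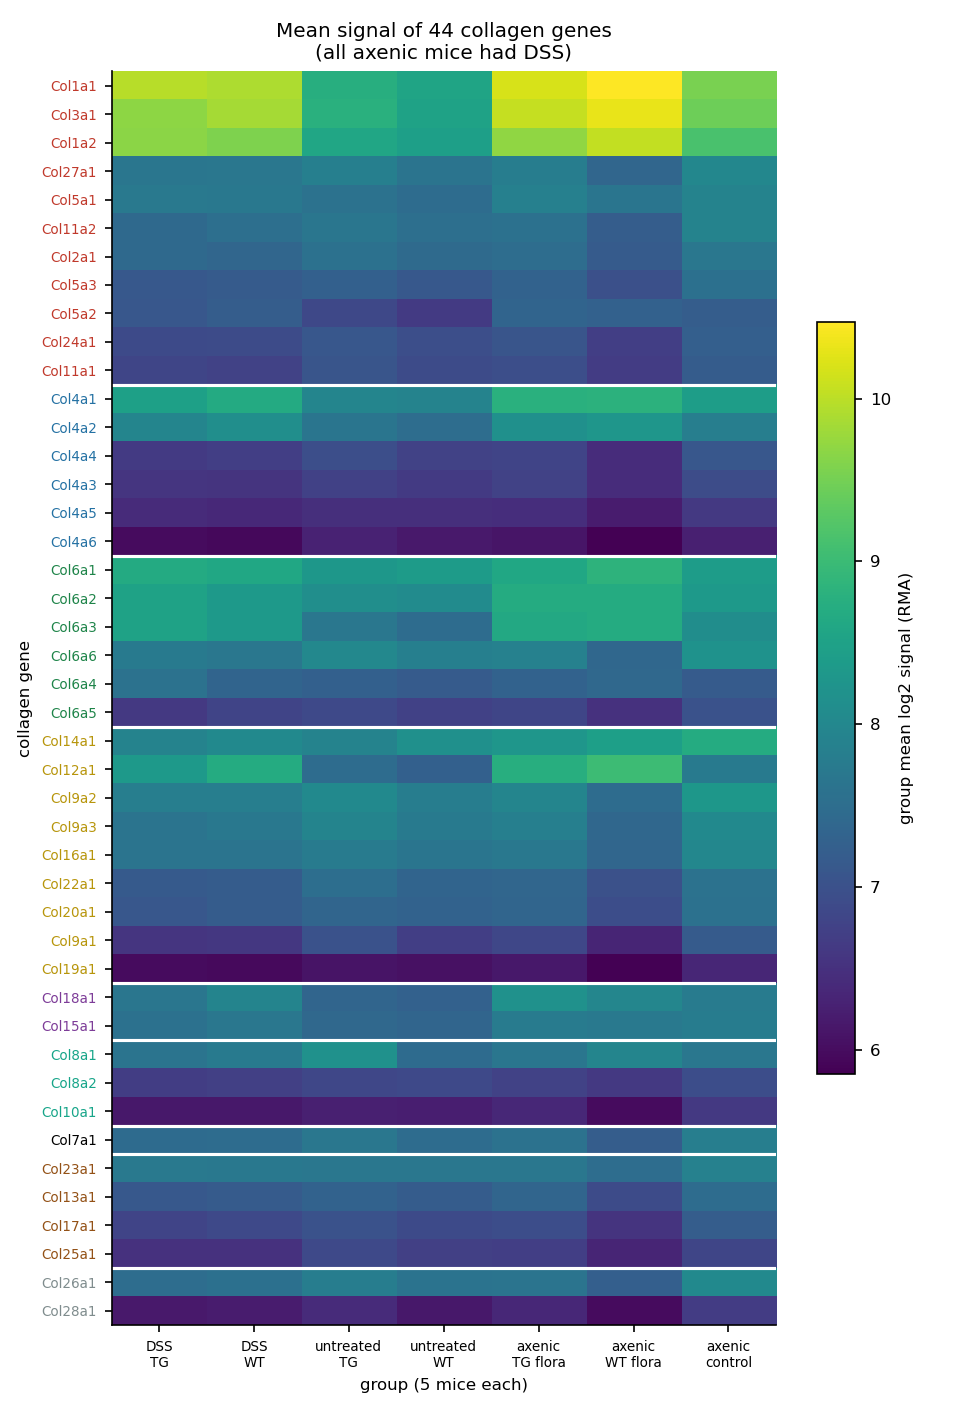
Mean log2 signal (colour) of 44 collagen genes (rows, coloured and ordered by class) in 7 groups of 5 mice (columns). Col1a1, Col1a2 and Col3a1 are at 9.58 or more in the DSS groups of conventional mice and at 8.78 or less in the untreated groups, and most genes of the other classes are lowest with WT flora.

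Levels of Col1a1 over the 7 groups ran from 8.55 ± 0.11 in untreated WT and 8.74 ± 0.18 in untreated TG mice to 9.54 ± 0.85 in axenic controls, 9.91 ± 0.66 in DSS WT, 9.98 ± 0.39 in DSS TG, 10.19 ± 0.40 with TG flora and 10.47 ± 0.47 with WT flora (SD, n = 5 each). Each of the 5 groups given DSS overlapped with its neighbours in that order, and so did both untreated groups. Col3a1 kept nearly the same order, from 8.52 ± 0.11 in untreated WT to 10.32 ± 0.58 with WT flora. The SD of both genes was at most 0.18 in the untreated groups and at least 0.39 in the groups given DSS. In Col3a1 axenic controls reached from 8.64 to 10.59, and all 35 mice from 8.39 to 10.94.

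Correlations of chains from mouse to mouse were taken within groups. For each gene the group mean was removed, and 8 pairs of chains were compared over 35 mice by permutation within groups. Col1a1 and Col1a2 correlated at r = 0.95 (Spearman's rho 0.93) and Col1a1 and Col3a1 at r = 0.95 (rho 0.94), each with a permutation p of 1e-05, the smallest that 100000 permutations can give, and adjusted values of 1.33e-05 for r and 1.6e-05 for rho. Col4a1 and Col4a2, the pair whose starts overlap, correlated at r = 0.92 (rho 0.87) and Col4a5 and Col4a6, the divergent pair on X, at r = 0.87 (rho 0.85), with the same permutation p and adjusted values. For Col6a1 and Col6a2 r was 0.81 (rho 0.79), with a permutation p of 2e-05 for r (adjusted 2.29e-05) and 4e-05 for rho (adjusted 4.57e-05). Across classes, Col1a1 and Col4a1 reached r = 0.84 (rho 0.80), with permutation p of 1e-05 for r (adjusted 1.33e-05) and 2e-05 for rho (adjusted 2.67e-05). Thus a fibrillar and a basement membrane gene correlated about as closely as 2 chains of type VI.

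Col4a3 and Col4a4 correlated at r = 0.85 (rho 0.78, permutation p of 1e-05 for each, adjusted 1.33e-05 and 1.6e-05), and Col5a1 and Col5a2 at r = 0.58 (rho 0.56, permutation p of 0.00183 and 0.00323, which adjustment leaves as they are). Without the 2 mice farthest from the median of the first gene, r was 0.93, 0.94, 0.90, 0.82, 0.75 and 0.82 for the 6 pairs of the preceding paragraph in their order, 0.83 for Col4a3 and Col4a4 and 0.67 for Col5a1 and Col5a2. The spread of the array was correlated with some of these genes. With it taken out, r was 0.96 for Col1a1 and Col1a2, 0.92 for Col4a1 and Col4a2 and 0.81 for Col6a1 and Col6a2. It was 0.66 for Col4a5 and Col4a6, 0.21 for Col4a3 and Col4a4 and 0.76 for Col5a1 and Col5a2.

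**Figure D5:**
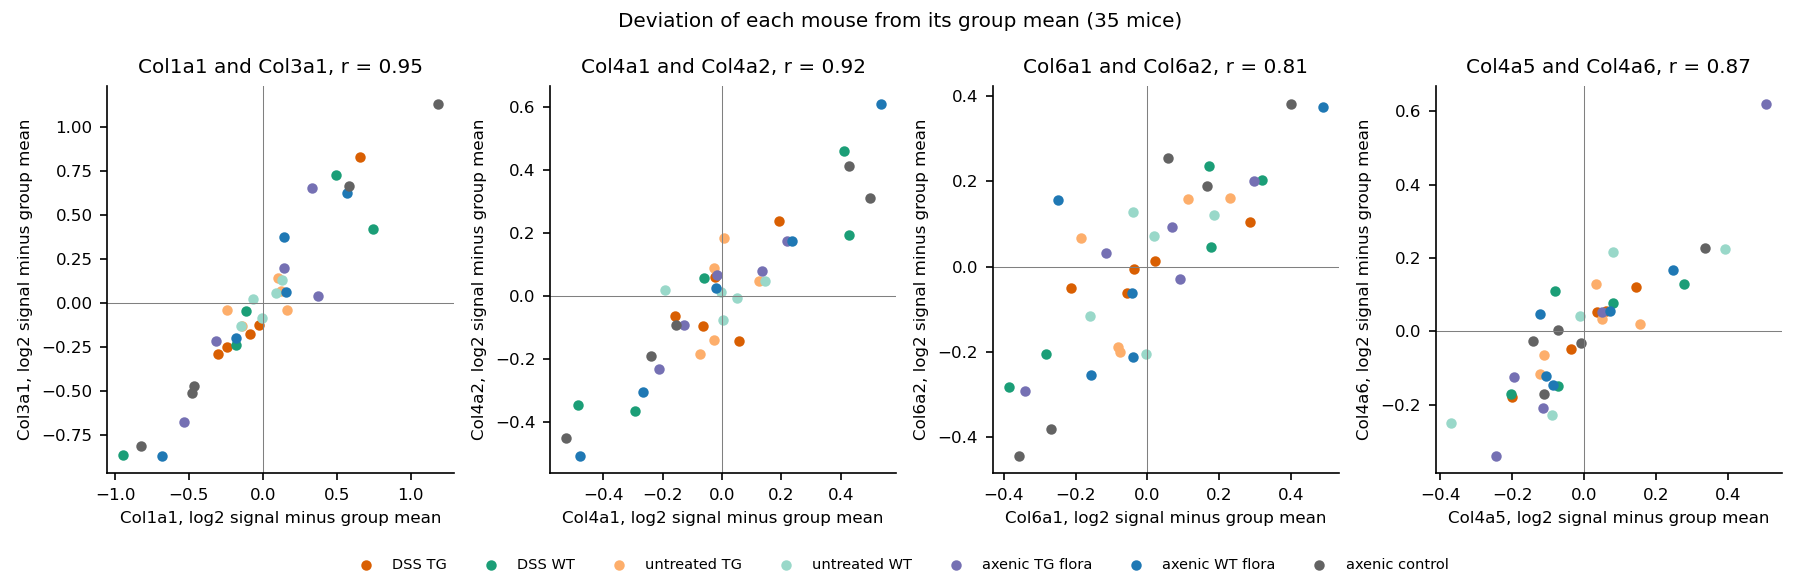
Deviation of the log2 signal of 35 mice from their group mean for 4 pairs of chains (first gene on horizontal, second on vertical axes), with colours for the 7 groups. The points of Col1a1 and Col3a1 lie close to a line (r = 0.95), and Col4a5 and Col4a6 hold 1 mouse with TG flora far from the rest.

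Over all 946 pairs of collagens the within-group r had a median of 0.63, with the array spread left in. Col5a1 and Col5a2 were at 0.58 on that measure and at 0.76 with the spread taken out, for which no median was computed. The 9 genes with a mean signal of at least 8 correlated with each other at a median of 0.72 and the 35 under 8 at a median of 0.81, while the median between both sets was -0.07. Of the 35 dimmer genes 29 had an r between -0.96 and -0.66 with the spread of the array. The other 6 were Col4a2, Col5a2, Col6a4, Col8a1, Col15a1 and Col18a1, with an r from -0.48 to 0.00. For the 9 brighter genes that r lay between 0.03 and 0.29. By the highest within-group r, the gene most like Col1a1 was Col3a1 (0.95), that most like Col4a1 was Col5a2 (0.92), that most like Col12a1 was Col1a2 (0.87) and that most like Col18a1 was Col4a1 (0.85). These are descriptions over 35 mice whose values share an array.

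Genes that act on collagen were counted in lists, beside which 3.46% of all genes were called higher and 1.08% lower after DSS in TG mice, and 3% higher and 2.13% lower in WT mice. Among 20 measured enzymes and chaperones of collagen synthesis, 1 was higher after DSS in TG mice and 4 in WT mice, with 0 lower in both. In WT mice they were Serpinh1, the collagen chaperone of the endoplasmic reticulum, at 0.94 (adjusted p = 0.0122), P4ha1 at 0.90 (adjusted p = 0.03) and P4hb at 0.71 (adjusted p = 0.0395), which form prolyl 4-hydroxylase, and the isomerase Fkbp14 at 0.51 (adjusted p = 0.0261). P4hb rose in TG mice by 0.58 (adjusted p = 0.037). Median differences of the list were 0.23 in TG and 0.28 in WT mice, against -0.01 and -0.02 over all genes.

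Of 13 genes for procollagen processing and cross-linking, 2 were higher after DSS in each genotype. Of all genes 3.46% were called higher and 1.08% lower in TG mice, and 3% and 2.13% in WT mice. Pcolce, which speeds the removal of the procollagen C-propeptide, rose by 0.84 in TG mice (adjusted p = 0.0114) and by 0.97 in WT mice (adjusted p = 0.0106). The cross-linking enzyme Tgm2 rose by 1.30 in TG (adjusted p = 0.0102) and 1.93 in WT mice (adjusted p = 0.00783). Mep1a, a protease of the epithelial brush border that can also cleave procollagen, fell in TG mice (-1.19, adjusted p = 0.00743). Of 19 fibril-associated proteoglycans and glycoproteins, 6 rose in TG mice and 4 in WT mice, with 0 and 2 lower. Sparc, which binds collagen, rose by 1.23 in TG (adjusted p = 0.00507) and 1.29 in WT mice (adjusted p = 0.0114), and Tnc, a glycoprotein of remodelled tissue, by 1.1 (adjusted p = 0.0212) and 1.85 (adjusted p = 0.0195). In WT mice Prelp (-0.63, adjusted p = 0.0305) and Tnxb (-0.58, adjusted p = 0.04) fell.

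Among 15 partners of type IV collagen in the basement membrane, 7 rose in TG mice and 1 in WT mice. The shares of all genes called higher were 3.46% in TG and 3% in WT mice. The laminin gene Lama4 passed in both, at 0.59 in TG (adjusted p = 0.0255) and 0.79 in WT mice (adjusted p = 0.0488), and in TG mice Lamb1 rose by 0.63, Lamc1 by 0.61 and the perlecan gene Hspg2 by 0.53. Of 10 collagen receptors and uptake genes, Ddr1 rose in TG mice by 0.41 (adjusted p = 0.0254), and Itga2 and Cd44 rose in WT mice by 1.62 (adjusted p = 0.000871) and 1.12 (adjusted p = 0.0322). Of 13 metalloproteinases and inhibitors 1 rose in TG mice, Mmp7 at 0.92 (adjusted p = 0.043), and 4 in WT mice. In WT mice the inhibitor Timp1 rose by 2.82 (adjusted p = 0.0124), the collagenase Mmp13 by 3.05 (adjusted p = 0.0216), and Mmp3 and Mmp10 by 3.29 and 2.39. Of 14 genes of TGF-beta signalling, a pathway that drives collagen transcription, Tgfb1 rose in TG mice by 0.69 (adjusted p = 0.0249). In WT mice 0 passed in limma, with 4 at an unadjusted p under 0.05. In the test of the difference between genotypes 0 genes of these 7 lists were called, with at most 2 per list at an unadjusted p under 0.05.

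Markers of cell types that make collagen were set beside these results. After DSS 3.46% of all genes were called higher and 1.08% lower in TG mice, and 3% and 2.13% in WT mice. Of 10 fibroblast markers 0 passed in limma after DSS in either genotype, with 2 in TG and 3 in WT mice at an unadjusted p under 0.05. Of 10 smooth muscle markers 0 passed, with 5 in TG and 3 in WT mice at that p. The mean of the fibroblast list was 7.91 ± 0.20 in DSS TG and 7.81 ± 0.12 in untreated TG mice, and 8.07 ± 0.34 in DSS WT and 7.75 ± 0.16 in untreated WT mice. Of 8 endothelial markers 1, Eng, rose in both genotypes, by 0.87 in TG (adjusted p = 0.0179) and 1.16 in WT mice (adjusted p = 0.0289). Of 8 macrophage and neutrophil markers 1 rose in TG and 6 in WT mice, and their mean was 7.67 ± 0.85 in DSS TG and 6.83 ± 0.09 in untreated TG mice, and 8.40 ± 0.87 in DSS WT and 6.89 ± 0.05 in untreated WT mice. In recipients of WT flora, where 32.1% of all genes were called higher than in axenic controls and 35.2% lower, 3 of 10 fibroblast markers were higher and 1 lower. They were Dpep1 at 2.39 (adjusted p = 0.000525), Pdgfra at 1.03 (adjusted p = 0.00488), Pdgfrb at 0.85 (adjusted p = 0.0163) and Fap at -0.34 (adjusted p = 0.0034), and the mean of the list was 8.21 ± 0.36 with WT flora and 7.73 ± 0.25 in axenic controls. Of the macrophage and neutrophil markers 5 of 8 were higher, as were 5 of 5 pancreatic and 5 of 8 epithelial markers, and 4 of 6 adipocyte, 4 of 5 squamous and 4 of 6 glial and neuronal markers were lower. The pancreatic mean was 10.12 ± 1.79 with WT flora and 7.15 ± 0.82 in axenic controls, and the epithelial mean 11.58 ± 0.20 and 10.67 ± 0.46 (SD, n = 5 each). The smooth muscle mean was 9.69 ± 0.35 with TG flora, 10.31 ± 0.22 with WT flora and 10.18 ± 0.30 in axenic controls. In limma 0 of its 10 markers passed in the 3 flora comparisons. At an unadjusted p under 0.05 there were 8 for TG against WT flora, 5 for TG flora against controls and 1 for WT flora against controls. Beyond the fit with the smooth muscle covariate, the part of all these cell types in the collagen results was not tested.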

How the data were processed

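Per the submitters' processing notes, the authors made the deposited log2 values with RMA in Affymetrix Expression Console 1.1. Of 28090 probe sets, 21639 had 1 gene symbol and 1539 several, which were left out, and 4912 were not listed in the annotation. The probe set with the highest mean stood for each of 990 genes with several, leaving 19908 genes. The tests used limma 3.58.1 (lmFit and eBayes, R 4.3.3), two-sided, on the arrays of each comparison, with Benjamini-Hochberg adjustment over all genes and calls at adjusted p under 0.05. SE is the moderated standard error. No batch, cage or sex is in the labels. Any collagen could be named. Those called, Col1a1, Col3a1 and the smallest p of each class were named in each comparison, with up to 4 called genes per pathway list. The collagens and the lists were chosen with earlier results of these data known. Of 189 genes in 18 other lists 179 were measured. The fits were tested on simulated data with independent noise for each gene. That simulation cannot show how calls behave where the genes of an array move together. Other settings were all 35 arrays in 1 model, array weights, trend and robust variance, quantile normalization, genes above the 40th percentile, the mean of probe sets, a smooth muscle covariate, arrays scaled to a common spread and leaving out each mouse. Python 3.11.15, numpy 2.4.6, pandas 2.3.3, scipy 1.17.1 and matplotlib 3.10.9 were used.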

Additional observations from a re-analysis of the deposited data

Results flagged for a closer look

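Of 259 sets of 5 mice, for the 37 collagens called in any comparison and the 7 groups, 14 held a mouse far from the others by Dixon's test, in which chance alone marks about 1 set in 20. The 14 are thus about as many as chance alone would mark, and the mice are named as a description. TG49, given DSS, was high in Col1a1 (10.64, next 9.95) and Col3a1 (10.52, next 9.56) and low in Col9a1 (6.10) and Col9a3 (7.15), and its array spread was 2.02, the widest of its group. The axenic control CT517 was high in Col2a1 (7.93), Col4a5 (6.96), Col5a3 (8.11) and Col19a1 (6.8), with the narrowest spread of all arrays, 1.64. TG922, which received TG flora, was high in Col16a1 (8.46), Col20a1 (8.02) and Col28a1 (7.0), with a spread of 1.66. The untreated WT mouse WT10 was low in Col1a2 (8.21), WT597 with WT flora was high in Col6a1 (9.33), and the untreated TG mouse TG31 was high in Col23a1 (8.13).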

How the results depend on the processing

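No paired analysis was possible because the groups share no replicate numbers. The counts of collagens called moved by more than 1.5 times in these settings. With array weights there were 15 for DSS in TG mice, 1 for TG against WT under DSS, 2 for TG against WT flora and 18 for TG flora against controls. With a smooth muscle covariate there were 0 for DSS in WT mice, where the 6 differences were 0.52 to 1.16, against 0.64 to 1.36 as reported, and 26 for TG flora against controls. With all 35 arrays in 1 model there were 3 for DSS in TG mice. Leaving out each mouse gave 2 to 9 for DSS in WT mice, 5 to 9 for DSS in TG mice, 0 to 6 for TG against WT flora, 0 to 15 for TG flora against controls and 29 to 35 for WT flora against controls. It gave 0 throughout for both genotype comparisons and for the difference in response. Of the values of single collagens over all settings 2000 kept their direction and side of the threshold, 91 lost the call, 41 gained it and 1 reversed, Col6a1 for WT flora against controls under quantile normalization, at -0.15. Over all genes, the settings that kept all mice gave 403 with the smooth muscle covariate to 5843 with array weights for DSS in WT mice, against 1022 as reported, and 421 to 3266 in the same settings for DSS in TG mice, against 905. They gave 4886 with array weights and 1927 with all 35 arrays in 1 model for TG against WT flora, against 0. For TG against WT under DSS these 2 settings gave 339 and 36, against 1. For TG flora against controls there were 6655 with array weights, 7807 with the covariate and 661 with all 35 arrays in 1 model, against 67. Quantile normalization gave 6637 for WT flora against controls, against 13401. Array values give no depth, and 5 mice per group limit the precision.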

Other observations

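Of 20 enzymes and chaperones of collagen synthesis 10 were called higher and 2 lower in axenic recipients of WT flora than in axenic controls. Of all genes 32.1% were called higher and 35.2% lower, and of all genes with a mean signal of at least 8, 74.8% were called higher and 2.64% lower. The list was not tested against other genes. P4hb, the shared subunit of prolyl 4-hydroxylase, differed by 1.07 (adjusted p = 0.000261), Mia3, which loads procollagen into transport carriers, by 1.12 (adjusted p = 0.000366) and the isomerase Ppib by 0.82 (adjusted p = 0.000863). Of 13 metalloproteinases and inhibitors 4 were higher and 1 lower, and of 14 genes of TGF-beta signalling 7 were higher and 1 lower. Processing and cross-linking genes had 2 higher and 2 lower of 13, fibril-associated proteoglycans and glycoproteins 2 and 2 of 19, basement membrane partners 5 and 1 of 15, and collagen receptors and uptake genes 5 and 1 of 10. With TG flora, 2 genes of these 7 lists passed against the same controls, Mmp8 at 3.95 (adjusted p = 0.0193) and Mmp7 at 1.19 (adjusted p = 0.0236). The array spread differed between recipients of WT flora and controls, and these lists were not fitted under other scalings.

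Markers of further cell types were read in the same arrays. Of all genes 3% were called higher and 2.13% lower after DSS in WT mice, and 3.46% and 1.08% in TG mice. After DSS in WT mice 0 of 5 pericyte markers passed, although their mean was 8.39 ± 0.36 in DSS WT and 7.81 ± 0.06 in untreated WT mice, with 3 at an unadjusted p under 0.05 in limma. In TG mice that mean was 7.77 ± 0.25 with DSS and 7.83 ± 0.05 without (SD, n = 5 each). Of 6 glial and neuronal markers 1 rose in WT mice, of 8 epithelial markers 1 rose in each genotype and 1 fell in WT mice, and 1 adipocyte and 1 pancreatic marker fell in WT mice. The mean of 5 pancreatic markers was 6.92 ± 1.08 in DSS WT and 9.17 ± 1.95 in untreated WT mice, with 4 at an unadjusted p under 0.05 in limma. It was 6.64 ± 0.17 in DSS TG and 8.01 ± 1.9 in untreated TG mice, with 0 at that p. Of 5 squamous and 5 mesothelial markers 0 passed after DSS in limma, with at most 1 per list and genotype at an unadjusted p under 0.05.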
